A study of Mus musculus with 19 samples.

Results

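Double mutant astrocyte nuclei, from mice labelled Fmr1 null that also carry a Cre to delete floxed Smad4, were compared with WT nuclei across all genes with a mean of at least 1 TPM (a transcript abundance scaled for gene length and library total). The comparison used 4 double mutant and 4 WT libraries of the 19 in the series, and 15049 of the 24537 genes listed. The double mutant is Fmr1 -/y with Smad4 fl/fl and GFAP-cre+, and WT is Fmr1 +/y with Smad4 fl/fl and GFAP-cre-, so both carry the floxed Smad4 allele and only the double mutant carries the Cre. All mice were of the C57BL/6J strain, reared normally, from the Fmr1, Gfap-Cre73.12 and Smad4 floxed lines. Double mutant libraries came from postnatal day 26 (2) and day 27 (2), and WT libraries from day 26 (1), day 27 (2) and day 28 (1). Cortical nuclei had been sorted for SOX9, a transcription factor of astrocytes, and against NEUN, a neuronal nuclear protein, and their RNA was sequenced after ribosomal RNA depletion. The Cre follows a Gfap promoter, which is active in astrocytes and in some neural progenitors. Effects of losing Fmr1, of deleting Smad4 and of the Cre transgene itself cannot be told apart in this comparison, so the libraries labelled Fmr1 KO (Fmr1 -/y, Smad4 fl/fl, GFAP-cre-, n = 5) and Smad4 cKO (Fmr1 +/y, Smad4 fl/fl, GFAP-cre+, n = 6), of days 26 to 28, are set beside it where a gene calls for it.

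Fmr1 encodes FMRP, an RNA-binding protein that represses the translation of many brain transcripts and whose loss causes fragile X syndrome. The product of Smad4 joins receptor-activated SMADs of both the BMP and the TGF-beta branch and enters the nucleus with them. In the cortex, astrocytes receive BMP signals as they mature, and Id genes are the best known direct targets of that branch. Astrocytes take up glutamate and potassium, supply cholesterol to neurons and secrete matrix and synapse-regulating proteins.

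In the 8 libraries, listed TPM summed to between 665382 and 716222, and between 17609 and 18692 genes were above 0. Read depth is unknown, since TPM keeps no counts. Rn45s, the ribosomal RNA precursor, took 18.6% ± 3.59 of the listed TPM in the double mutant and 29.2% ± 6.36 in WT (SD, n = 4 each). That difference of -10.6 points did not pass an exact two-sided permutation test (p = 0.0571, where 0.0286 is the smallest possible), and it was -3.03 on day 26 and -14.3 on day 27. Here and below, differences on day 26 set 2 double mutant libraries against 1 WT library. The WT library of day 28 enters neither day. Scaled TPM is TPM divided by a library factor, of 1.02 to 1.06 in the double mutant and 0.931 to 0.9999 in WT. These factors did not overlap between the groups, so scaling lowered the double mutant relative to WT. Each change is a difference of log2(scaled TPM + 1), double mutant minus WT, which understates the change of low genes. It is given with its standard error from limma, and a gene passed where its adjusted p was under 0.05. In limma the spread was estimated from all 19 libraries of the 4 genotypes, not from the 8 alone. The labels do not say whether replicates were separate animals, so p-values measure the spread between these samples, which may be technical.

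The sorted identity was visible in all 8 libraries. The 12 astrocyte markers summed to 6694 to 8943 scaled TPM in the double mutant and 5783 to 8394 in WT. The 24 neuron markers summed to 195 to 590.1 in the double mutant and 129 to 395 in WT, and the 23 tested had a median change of 0.10, with 14 above 0, 0 passing in limma and 1 at an unadjusted p under 0.05. Markers of other cells were present as well. All 15 oligodendrocyte markers had an estimate above 0 (median 1.16), with 0 passing, and summed to 823 to 3876 scaled TPM in the double mutant and 323 to 1597 in WT. All 14 endothelial markers had an estimate below 0 (median -0.87), with 0 passing. Of the 14, 11 had an unadjusted limma p under 0.05, against 1801 of 15049 for all genes. The 14 summed to 230.0 to 336 scaled TPM in the double mutant and 239 to 874 in WT. The WT range was wide, with WT replicates 1 and 2 at 696 and 874, and replicates 3 and 4 at 239 and 379.8. The 12 oligodendrocyte precursor markers had a median of 0.50 and the 15 microglia markers one of -0.20, again with 0 passing. The 6 tested markers of ependymal and choroid plexus cells had a median of -0.07, with 0 passing. In bulk nuclei, fewer cells of a type and less RNA per cell cannot be told apart. No defining marker of these types was at 0 in all 8 libraries. The part of these cells in the gene changes was examined by a pair of fits chosen after the data were seen. One had endothelial and oligodendrocyte marker scores as covariates, and where a named gene lost its call there, its values are given beside it. The other left out the double mutant and the WT library of highest neuron markers (replicate 3 of each). The part of microglia, oligodendrocyte precursors, mural and ependymal cells was not tested.

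**Figure D1:**
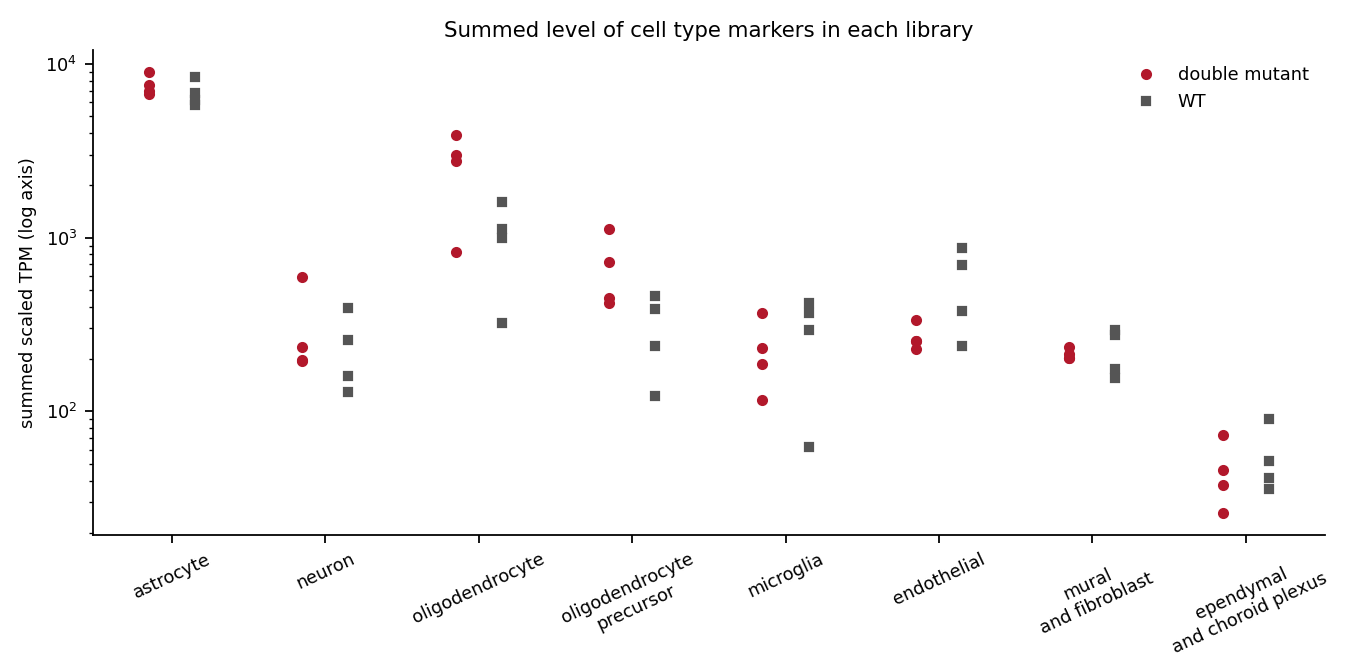
Summed scaled TPM of 8 lists of cell type markers (vertical log axis) in each of the 4 double mutant libraries (red circles) and 4 WT libraries (grey squares). Endothelial sums were 230.0 to 336 in the double mutant and 239 to 874 in WT, and oligodendrocyte sums were 823 to 3876 in the double mutant and 323 to 1597 in WT.

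The targeted transcripts were read first. Fmr1 (chromosome X, 68678536 to 68717963, build GRCm38) had 36.8, 38.7, 37.01 and 35.4 scaled TPM in the double mutant, against 31.5, 24.1, 27.3 and 21.6 in WT. Every library labelled Fmr1 -/y lay above every WT library, so the gene-level value was higher, not lower, under the null label. The log2 change was 0.50 ± 0.10 (adjusted p = 0.019), and the exact two-sided permutation test over libraries gave p = 0.0286, the smallest 4 against 4 allow. The gene no longer passed without double mutant replicate 1, 2 or 3 or WT replicate 2 or 4 (adjusted p up to 0.0804), nor with the marker scores as covariates (0.56 ± 0.13, adjusted p = 0.0877). Smad4 had 36.1, 30.8, 30.7 and 30.8 scaled TPM in the double mutant and 33.1, 36.5, 30.2 and 33.1 in WT, which overlapped (log2 change -0.05 ± 0.07, exact p = 0.629). Its sign turned without scaling (0.05) and with the marker scores (0.09). TPM summed over a gene shows neither the Fmr1 insertion nor the Smad4 deletion, so the alleles cannot be read from these values. Of 25 tested genes within 5 Mb of Fmr1, 0 passed, 5 had an unadjusted limma p under 0.05, and their changes ran from -0.59 to 0.50. On chromosome X as a whole, Fmr1 alone passed of 513 tested genes.

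Over all genes, 144 of 15049 (0.957%) passed, 74 higher (0.492%) and 70 lower (0.465%) in the double mutant. The median change of all genes was -0.00, and 1801 of the 15049 genes had an unadjusted p under 0.05. These shares over all genes are the background for each count of list members in this text. Of the 144, 36 changed more than 2-fold (14 higher, 22 lower), 31 changed by less than 0.5 on the log2 scale, and 135 were protein-coding. In 142 of the 144 the 4 double mutant and 4 WT libraries did not overlap, beside 943 of all 15049 genes (6.27%). The 144 were picked by p-values that use these same libraries, so their separation adds no independent support. Without any scaling of the deposited TPM, 360 genes passed, of which 300 were higher and 60 lower, and the median of all genes moved to 0.09. The count was 46 with the 8 double mutant and WT libraries alone, 34 of them among the 144. It was 269 without WT replicate 3, 81 without WT replicate 2 and 86 without double mutant replicate 4. It was 40 with the marker scores as covariates, 35 of them among the 144, and 151 without the double mutant and the WT library of highest neuron markers, 85 of them among the 144. Of the genes named here that passed, Fmr1, Ldlrad4, Adamts5, Adamts9, Hopx, Tle2, Tprkb, Tuba1a and Ass1 did not pass without those libraries.

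**Figure D2:**
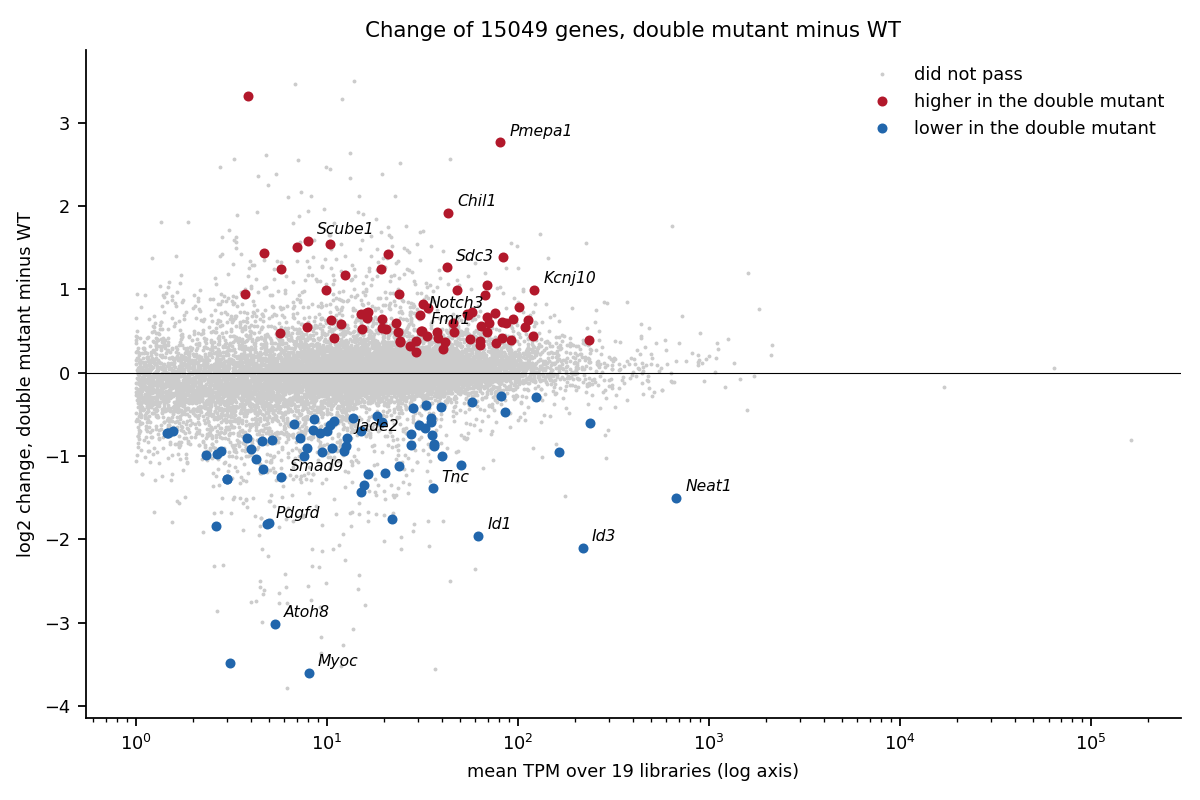
Log2 change, double mutant minus WT (vertical axis), against mean TPM over 19 libraries (horizontal log axis) for 15049 genes, with the 74 genes that passed as higher in red and the 70 that passed as lower in blue. Pmepa1 and Chil1 stand high at 2.76 and 1.92, and Myoc, Atoh8 and Id3 low at -3.60, -3.01 and -2.10.

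Genes of the SMAD response changed in both directions, with Pmepa1 many times higher and Id and bHLH genes several times lower in the double mutant. Among 20 listed SMAD-responsive targets, 19 were tested, of which 2 rose, 4 fell and 13 did not pass. Over all genes 0.957% passed. The median of the 19 was -0.42, beside -0.00 for all genes, and 6 were above 0. With the marker scores as covariates that median was -0.12, with 9 of 19 above 0. By day it was -0.71 on day 26, which has 1 WT library, and -0.11 on day 27. Pmepa1 (chromosome 2, 173224458 to 173276731), a TGF-beta-induced membrane protein that restrains SMAD signalling, had 125, 126, 134 and 155 scaled TPM in the double mutant, against 13.7, 22.4, 18.7 and 22.6 in WT. The lowest double mutant library stood several times above the highest WT library, a log2 change of 2.76 ± 0.16 (adjusted p = 6.83e-08). It was -0.13 ± 0.16 in Fmr1 KO against WT and 2.79 ± 0.15 in Smad4 cKO against WT, which use the same WT libraries. Ldlrad4, a related inhibitor of TGF-beta signalling, had 22.4, 17.4, 17.7 and 17.7 scaled TPM in the double mutant and 9.38, 13.7, 10.2 and 11.2 in WT. All 4 double mutant libraries were above WT, with replicate 1 apart from the other 3. Its log2 change of 0.71 ± 0.14 (adjusted p = 0.0137) did not pass without double mutant replicate 1 (0.63, adjusted p = 0.0556).

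The targets that fell are genes of the BMP branch. Id3 (chromosome 4, 136143822 to 136145392), which encodes a dominant-negative partner of bHLH factors, had 80.9, 90.4, 93.7 and 84.6 scaled TPM in the double mutant, against 444, 450.1, 434 and 233 in WT. The double mutant libraries lay close together and below all WT libraries, of which replicate 4 was lowest (log2 change -2.10 ± 0.22, adjusted p = 9.95e-05). Id1, of the same family, had 34.9, 16.5, 18.7 and 30.8 scaled TPM in the double mutant and 145, 115, 89.2 and 57.4 in WT. It fell without overlap (-1.96 ± 0.34, adjusted p = 0.00754), with WT values that differed more among themselves. Atoh8, a bHLH transcription factor, had 1.04, 0.5403, 0.654 and 0.704 scaled TPM in the double mutant, against 8.37, 15.6, 11.9 and 17.6 in WT. It was near the bottom of the measured range in all 4 double mutant libraries (log2 change -3.01 ± 0.21, adjusted p = 2.15e-07). Smad9, the BMP receptor-activated SMAD8, had 2.59, 3.52, 2.85 and 3.801 scaled TPM in the double mutant and 8.25, 9.36, 10.7 and 7.65 in WT, with no overlap (log2 change -1.25 ± 0.20, adjusted p = 0.00399). Id4 was at 243, 248, 218 and 203 in the double mutant and 471, 372, 411 and 256 in WT, again without overlap, but did not pass (-0.69 ± 0.21, adjusted p = 0.147). Skil and Msx2, picked after their values were seen, also did not pass. Skil, a SMAD corepressor, was at 0.66 ± 0.18 (adjusted p = 0.0942) and Msx2, a homeobox target of BMP, at -1.03 ± 0.26 (adjusted p = 0.0691). With the marker scores as covariates Pmepa1, Ldlrad4, Id3, Atoh8 and Smad9 still passed, and Id1 did not (-1.34 ± 0.33, adjusted p = 0.117).

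**Figure D3:**
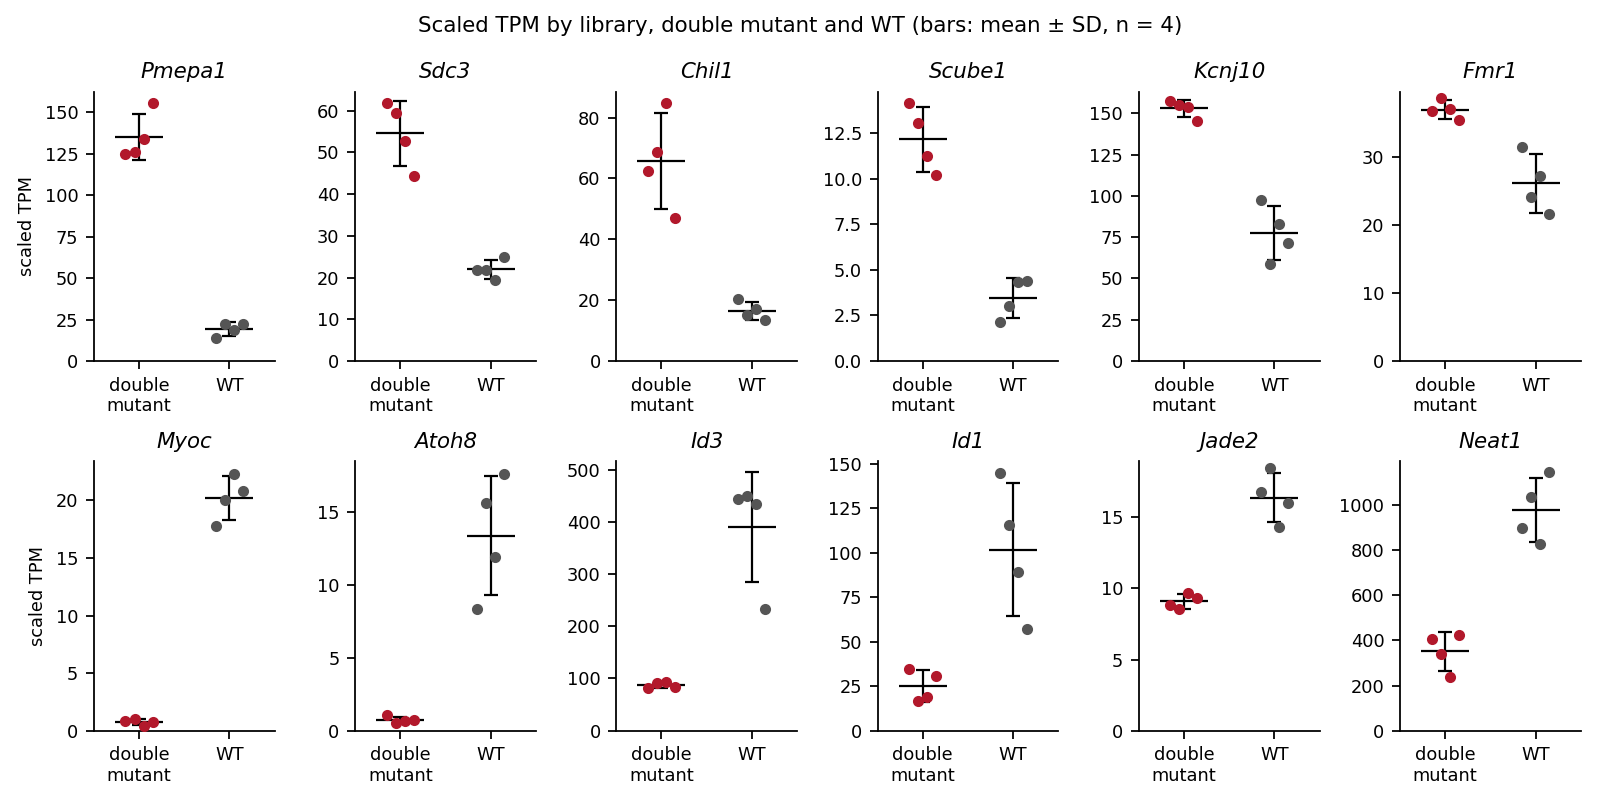
Scaled TPM (vertical axis, starting at 0) of 12 genes in each of the 4 double mutant libraries (red, left) and 4 WT libraries (grey, right), with mean and SD as bars. No gene shown overlaps between the groups: Pmepa1 is at 125 or more in the double mutant and at most 22.6 in WT, and Myoc at most 1.01 in the double mutant and at least 17.8 in WT.

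The promoters of 4 strongly changed genes, each with a match, are shown for the letters that SMAD proteins are known to bind. One is CAGAC, the SMAD-binding element, searched on both strands. The other is a GC-rich element, GGCGCC, which reads the same on either strand. Windows run from 250 bases before to 50 after the RefSeq start on build GRCm38.p6, in the direction of the gene, and capitals mark the matches. They are Id3 (chr4:136143572-136143871, plus strand), Smad9 (chr3:54755332-54755631, plus strand), Myoc (chr1:162638900-162639199, plus strand) and Sdc3 (chr4:130792287-130792586, plus strand).
Id3: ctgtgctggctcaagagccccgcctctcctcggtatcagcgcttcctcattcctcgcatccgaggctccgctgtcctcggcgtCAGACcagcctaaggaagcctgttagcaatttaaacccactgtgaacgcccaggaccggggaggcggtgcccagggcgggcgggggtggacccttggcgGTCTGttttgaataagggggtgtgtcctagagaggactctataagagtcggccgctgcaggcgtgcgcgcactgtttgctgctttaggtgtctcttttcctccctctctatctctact
Smad9: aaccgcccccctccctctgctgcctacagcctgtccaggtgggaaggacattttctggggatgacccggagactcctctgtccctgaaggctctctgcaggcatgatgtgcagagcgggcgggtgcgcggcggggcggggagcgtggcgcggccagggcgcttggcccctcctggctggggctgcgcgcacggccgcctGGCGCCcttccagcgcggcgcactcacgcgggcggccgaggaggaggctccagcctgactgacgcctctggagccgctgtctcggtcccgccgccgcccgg
Myoc: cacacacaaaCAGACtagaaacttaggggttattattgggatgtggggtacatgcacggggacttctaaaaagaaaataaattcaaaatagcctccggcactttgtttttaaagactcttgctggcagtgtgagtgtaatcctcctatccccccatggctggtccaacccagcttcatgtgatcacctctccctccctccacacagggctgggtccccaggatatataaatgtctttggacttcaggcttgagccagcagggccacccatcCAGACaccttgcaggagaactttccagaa
Sdc3: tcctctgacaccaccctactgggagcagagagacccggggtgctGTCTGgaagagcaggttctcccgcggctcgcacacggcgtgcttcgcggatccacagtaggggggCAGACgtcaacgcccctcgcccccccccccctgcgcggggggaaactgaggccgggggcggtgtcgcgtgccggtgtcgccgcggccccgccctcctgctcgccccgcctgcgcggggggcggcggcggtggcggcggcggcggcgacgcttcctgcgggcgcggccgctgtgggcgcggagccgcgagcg
The promoters of Id3, Myoc and Sdc3 each hold 2 matches of the SMAD-binding element and none of the GC-rich one, and that of Smad9 holds 1 of the GC-rich element and none of the other. The SMAD-binding element is common, at 49.6% of 32851 RefSeq windows of 300 bases, and the GC-rich element is in 11.9%. Of the 30 genes with the smallest adjusted p (15 higher, 15 lower), 24 had a window, of which 17 held the SMAD-binding element and 5 the GC-rich one. The palindrome GTCTAGAC, a stronger SMAD site, is in 0.213% of windows and in 0 of the 24. A match describes letters and shows no binding. Id3 fell while Sdc3 rose with the same number of matches. Not every strongly changed gene holds a match. Atoh8 (log2 change -3.01) and Chil1 (1.92) changed more than Smad9 and Sdc3, and their windows hold neither element.

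Among ligands, receptors and SMADs, few genes passed. Of 13 tested BMP and TGF-beta ligands (15 listed), 0 passed in limma, 3 had an unadjusted p under 0.05, and the median was -0.10. Inhbb, the activin B subunit, had 24.7, 27.1, 32.6 and 23.2 scaled TPM in the double mutant and 15.8, 14.1, 20.6 and 10.2 in WT, with no overlap, but missed the threshold (0.82 ± 0.21, adjusted p = 0.0825). Of 20 receptors and SMADs, 1 passed, 9 had an unadjusted p under 0.05, against 1801 of 15049 for all genes, and the median was -0.12. That gene is Acvr1, the type I receptor ALK2 for BMPs and activins, at 23.1, 22.3, 21.2 and 21.4 scaled TPM in the double mutant, against 13.3, 15.4, 14.5 and 16.2 in WT. It was higher in every double mutant library (log2 change 0.54 ± 0.09, adjusted p = 0.00516; 0.52 ± 0.11, adjusted p = 0.0736 with the marker scores). The type II receptor Acvr2b (-0.35 ± 0.10, adjusted p = 0.1303) and the BMP receptor Bmpr1a (-0.21 ± 0.07, adjusted p = 0.212) did not pass.

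Some genes for proteins that hold or present these ligands outside the cell rose. Of 14 tested latent binding proteins and antagonists (22 listed), 3 rose, 0 fell and 11 did not pass, with a median of 0.04. Over all genes 0.492% rose and 0.465% fell. Scube1, a secreted and membrane-bound EGF-repeat protein, had 14.2, 13.1, 11.2 and 10.2 scaled TPM in the double mutant, against 2.14, 3.04, 4.32 and 4.41 in WT. Every double mutant library was above every WT library (log2 change 1.58 ± 0.18, adjusted p = 3.00e-04), and the difference was 2.22 on day 26 and 1.13 on day 27. Ltbp3, a latent TGF-beta binding protein that aids secretion of latent TGF-beta, had 94.5, 87.5, 79.7 and 91.2 scaled TPM in the double mutant and 59.4, 50.5, 47.4 and 55.9 in WT. Its relative Ltbp1, which tethers latent TGF-beta to the matrix, had 18.3, 17.3, 14.9 and 19.2 in the double mutant and 11.2, 11.9, 12.01 and 12.2 in WT. Neither pair of groups overlapped, and the change was 0.72 ± 0.11 for Ltbp3 (adjusted p = 0.00329) and 0.52 ± 0.09 for Ltbp1 (adjusted p = 0.00536). Ltbp1 did not pass with the marker scores (0.50 ± 0.11, adjusted p = 0.0794). Ltbp4 (-0.76 ± 0.21, adjusted p = 0.109) and the BMP antagonist Chrdl1 (0.61 ± 0.20, adjusted p = 0.175), which astrocytes secrete and which acts on synaptic AMPA receptors, did not pass.

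Genes outside the pathway rose as well, among them Sdc3, Chil1 and Kcnj10. Sdc3, a heparan sulfate proteoglycan of the cell surface, had 61.9, 59.4, 52.7 and 44.4 scaled TPM in the double mutant, against 21.8, 21.8, 19.5 and 25.04 in WT (log2 change 1.26 ± 0.12, adjusted p = 3.39e-05). Chil1, a secreted chitinase-like protein made by astrocytes, had 62.3, 68.5, 84.9 and 46.9 in the double mutant and 20.4, 15.1, 16.9 and 13.4 in WT (log2 change 1.92 ± 0.21, adjusted p = 1.67e-04). Both were more than 2-fold higher with no overlap between the groups. Kcnj10, which encodes the potassium channel Kir4.1 of mature astrocytes, had 157, 155, 154 and 145 scaled TPM in the double mutant, against 97.2, 58.6, 83.2 and 71.4 in WT. The double mutant libraries were tightly grouped and the WT libraries were not (log2 change 0.99 ± 0.15, adjusted p = 0.00287; 0.92 ± 0.18, adjusted p = 0.0504 with the marker scores). Plekhd1 was at 1.55 ± 0.20, Scel, which encodes sciellin, at 1.51 ± 0.21 and Ccdc80, a secreted matrix-associated protein, at 0.82 ± 0.12. Smaller rises were those of the AP-3 adaptor subunit Ap3s1 (0.73 ± 0.09), the calcium-binding Gca (0.60 ± 0.08), Rimklb, a ligase that joins glutamate to N-acetylaspartate (0.61 ± 0.10), and the splicing factor Nova1 (0.39 ± 0.06). Adjusted p for these 7 genes ran from 5.96e-04 (Ap3s1) to 0.00428 (Rimklb), and none overlapped between the groups. Nova1 did not pass with the marker scores (0.37 ± 0.08, adjusted p = 0.0579).

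Myoc showed the deepest fall among the named genes. Myoc (chromosome 1, 162639150 to 162649694), the secreted glycoprotein myocilin, had 0.873, 1.01, 0.3801 and 0.763 scaled TPM in the double mutant, against 17.8, 20.04, 22.3 and 20.8 in WT. It was close to the pseudocount of 1 in all 4 double mutant libraries (log2 change -3.60 ± 0.23, adjusted p = 1.01e-07). Serpinf1, which encodes the secreted factor PEDF, had 0.7797, 1.304, 1.21 and 0.0915 scaled TPM in the double mutant and 4.47, 7.398, 6.47 and 3.72 in WT (-1.84 ± 0.29, adjusted p = 0.00399; -1.77 ± 0.36, adjusted p = 0.0574 with the marker scores). Low values leave both folds imprecise. Btbd3, which in mouse neurons orients dendrites, had 23.2, 30.1, 35.4 and 26.5 scaled TPM in the double mutant, against 58.9, 56.8, 52.3 and 45.9 in WT (-0.88 ± 0.12, adjusted p = 0.001202). Slc20a1, a sodium-phosphate cotransporter, had 216, 187, 193 and 181 in the double mutant and 281, 299.6, 335 and 271 in WT (-0.61 ± 0.10, adjusted p = 0.00496). Both fell without overlap. The matrix protein Sned1 (-0.86 ± 0.14), the adhesion adaptor Sorbs3 (-0.47 ± 0.08), the phosphatase Ppef2 (-0.78 ± 0.12) and the ankyrin-repeat gene Ankrd10 (-0.35 ± 0.06) fell as well, with adjusted p between 0.00287 and 0.00496. Ppef2 (-0.62 ± 0.13, adjusted p = 0.0613) and Ankrd10 (-0.32 ± 0.07, adjusted p = 0.0874) did not pass with the marker scores. Ass1, an enzyme of arginine synthesis picked after its values were seen, was at -1.28 ± 0.23 (adjusted p = 0.00928; -1.26 ± 0.29, adjusted p = 0.0884 with the marker scores). It has a near-identical predicted copy, Gm5424, that also fell, and how reads were split between them is uncertain.

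In astrocyte function, most genes did not pass. Of 23 mature astrocyte genes, Kcnj10 rose and the other 22 did not pass, with a median of 0.10. Slc1a2, the main glutamate transporter, was at 0.22 ± 0.18 (adjusted p = 0.723). Aqp4, the aquaporin of astrocyte endfeet, was at -0.27 ± 0.25 (adjusted p = 0.764). Both had overlapping groups. S100b, a calcium-binding astrocyte protein, was at 0.65 ± 0.21 (adjusted p = 0.182), and Slc7a10, an exchanger of small neutral amino acids including serine, at 0.54 ± 0.16 (adjusted p = 0.1503). Among 27 tested genes of glutamate, GABA and ion handling, 2 rose, 0 fell and the median was 0.11. Beside Kcnj10 this was Slc6a9, the glycine transporter GlyT1, with 23.7, 44.7, 30.1 and 28.2 scaled TPM in the double mutant, against 16.5, 12.6, 17.3 and 16.2 in WT. Replicate 2 was highest and no library overlapped (0.94 ± 0.16, adjusted p = 0.00791; 0.79 ± 0.19, adjusted p = 0.104 with the marker scores). The glutamine transporter Slc38a3 (0.59 ± 0.17, adjusted p = 0.125) and the mitochondrial glutamate carrier Slc25a18 (-0.59 ± 0.16, adjusted p = 0.0942) did not pass.

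Of 16 tested intermediate filament and reactive genes (24 listed), 0 passed in limma. An unadjusted p under 0.05 was seen in 6 of them, against 1801 of 15049 for all genes. The median of the 16 was -0.47, with 3 of 16 above 0, beside -0.00 over all genes. With the marker scores as covariates it was -0.12. Gfap, the classic filament of reactive astrocytes, had 187, 129, 119.8 and 175 scaled TPM in the double mutant and 109.6, 129, 135 and 146 in WT, overlapping (0.21 ± 0.35, adjusted p = 0.893). The oncostatin M receptor Osmr had 3.53, 2.39, 2.84 and 2.499 in the double mutant and 4.84, 8.501, 4.91 and 6.36 in WT (-0.89 ± 0.23, adjusted p = 0.0836). Of 19 tested astrocyte synapse regulators 0 passed and 4 had an unadjusted p under 0.05, against 1801 of 15049 for all genes. Sparc, which in mouse astrocytes limits synapse formation, had 108, 84.4, 103 and 65.5 scaled TPM in the double mutant and 53.2, 49.99, 19.7 and 40.2 in WT. Its groups did not overlap, yet its standard error was large (1.19 ± 0.36, adjusted p = 0.1399). With the marker scores as covariates Sparc did pass (1.81 ± 0.35, adjusted p = 0.0392), the only 1 of 16 alternatives where it did.

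**Figure D4:**
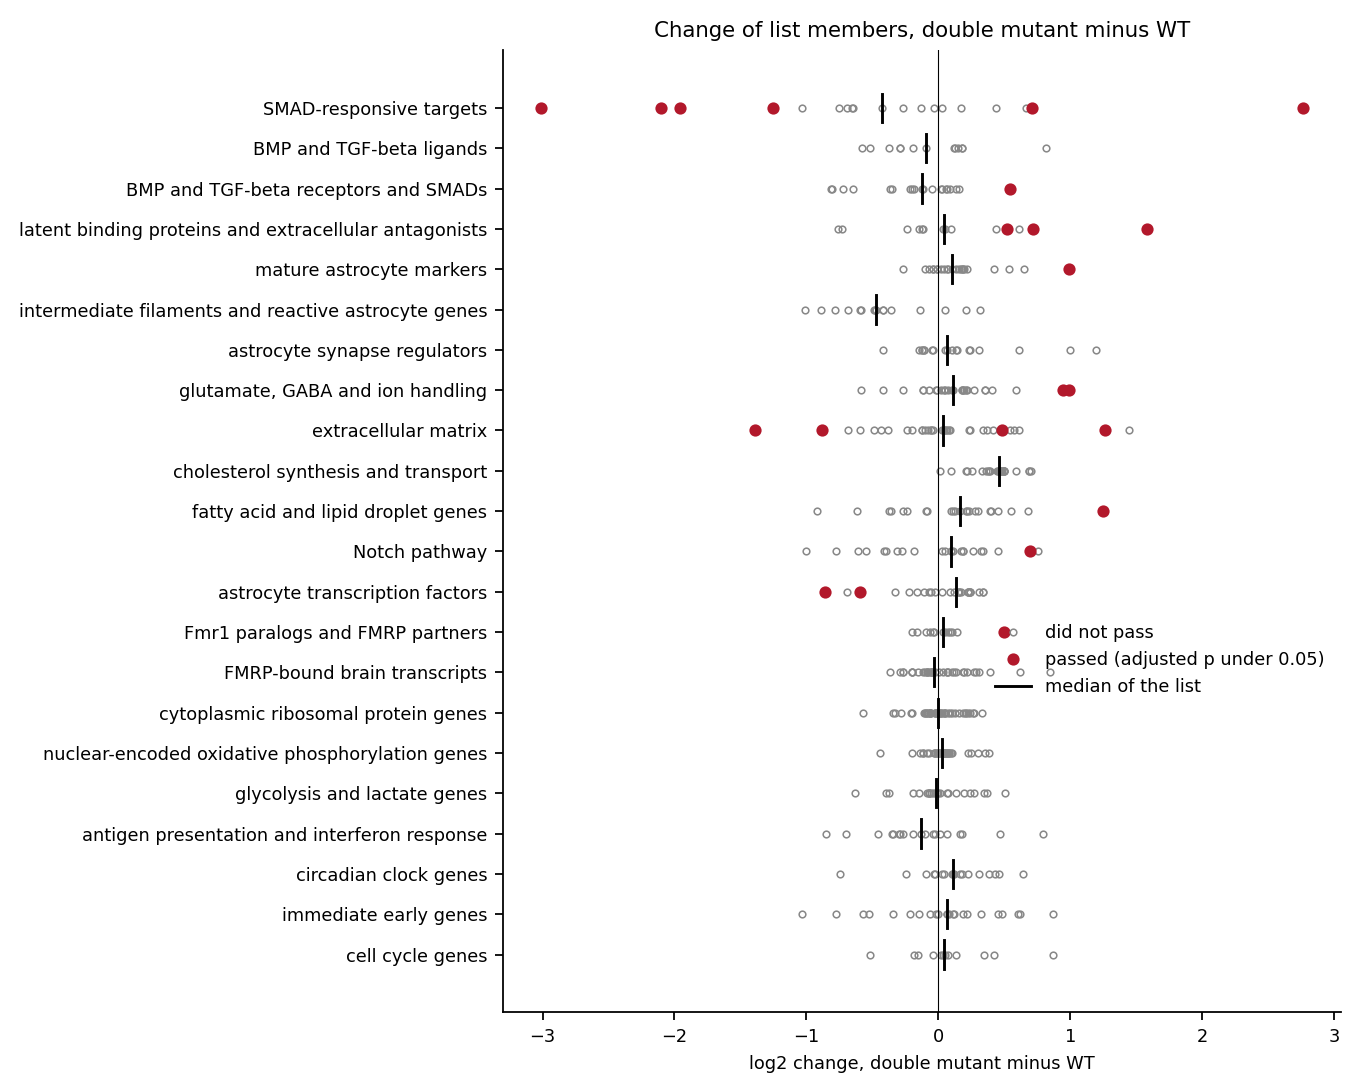
Log2 change, double mutant minus WT (horizontal axis), of each tested member of 22 gene lists (vertical axis). Filled red circles passed, open grey circles did not, and the black bar is each list's median, which runs from -0.47 for intermediate filament and reactive genes to 0.46 for cholesterol genes.

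Matrix genes changed in both directions. Of 34 tested (39 listed), 2 rose and 2 fell, beside 0.492% and 0.465% over all genes, with a median of 0.04. Sdc3 and Adamts5, a protease that cleaves lecticans, rose, and Tnc and Adamts9, another protease of the family, fell. Tnc, the matrix glycoprotein tenascin C, had 20.8, 24.02, 16.8 and 16.98 scaled TPM in the double mutant, against 45.8, 58.7, 59.1 and 47.7 in WT (log2 change -1.39 ± 0.19, adjusted p = 0.001202). Every double mutant library was below every WT library. Adamts9 had 10.7, 9.85, 7.19 and 7.84 scaled TPM in the double mutant and 15.3, 18.9, 15.1 and 19.4 in WT (-0.88 ± 0.19, adjusted p = 0.0253). Adamts5 was at 0.48 ± 0.10 (adjusted p = 0.0225). Adamts5 did not pass without double mutant replicate 3 or 4 or WT replicate 2 (adjusted p up to 0.0919), nor Adamts9 without double mutant replicate 3 or 4 or WT replicate 2 or 4 (up to 0.0988). Both were also lost with the replicate number as a block, with the 8 libraries alone and with the marker scores, which gave 0.50 ± 0.12 for Adamts5 (adjusted p = 0.0969) and -0.69 ± 0.21 for Adamts9 (adjusted p = 0.207). Adamts5 was lost too at a mean TPM of 5, with day as a factor and with scaling without Rn45s.

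All 25 genes of cholesterol synthesis and transport had an estimate above 0 and 0 passed in limma. Their median was 0.46, and 16 of 25 had an unadjusted p under 0.05, against 1801 of 15049 for all genes. Hmgcs1, an early enzyme of the mevalonate pathway, had 240.1, 200.3, 139 and 146 scaled TPM in the double mutant and 95.1, 84.3, 138 and 129 in WT (0.69 ± 0.26, adjusted p = 0.272). Double mutant replicates 1 and 2, both of day 26, were highest. Lss, which closes the sterol ring, had 102, 88.6, 54.2 and 52.5 in the double mutant and 43.6, 38.5, 41.6 and 53.3 in WT (0.68 ± 0.26, adjusted p = 0.261), with the same 2 libraries apart. Sqle, squalene epoxidase, was at 0.50 ± 0.20 (adjusted p = 0.2903). Over the 25 genes the median was 0.69 on day 26, which has 1 WT library, and 0.09 on day 27. Their summed scaled TPM on day 26 was 4957 and 5269 in the double mutant and 5121 in WT replicate 1, so the sums did not separate. A dependence on day was not tested. The median of the 25 genes was 0.46 with the marker scores as covariates, where 24 of 25 were above 0. Among 23 fatty acid and lipid droplet genes 1 rose, Pnpla3, a lipid droplet acylhydrolase, with 29.1, 29.99, 22.4 and 25.2 scaled TPM in the double mutant, against 8.86, 7.48, 13.5 and 13.95 in WT (1.24 ± 0.17, adjusted p = 0.001202). All double mutant libraries were well above WT. Acacb, an acetyl-CoA carboxylase, was at -0.62 ± 0.16 (adjusted p = 0.0928).

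Notch3 rose alone among 23 Notch pathway genes (median 0.10). This receptor, best known from mural cells of vessels and also made by astrocytes, had 38.9, 42.6, 34.01 and 35.3 scaled TPM in the double mutant, against 24.2, 23.6, 20.03 and 23.9 in WT (0.69 ± 0.09, adjusted p = 0.00101). It is also on the list of 11 tested mural and fibroblast markers (15 listed), where it was the only one to pass and the median was -0.14. Their sums were 202 to 234 scaled TPM in the double mutant and 156 to 292 in WT. Dner, a Notch ligand, was at -0.61 ± 0.15 (adjusted p = 0.0709). Among 26 tested astrocyte transcription factors (27 listed) 0 rose and 2 fell, with a median of 0.13. Hopx, an atypical homeodomain protein, had 18.96, 29.8, 20.4 and 22.9 scaled TPM in the double mutant, against 39.4, 41.9, 51.5 and 36.3 in WT (-0.86 ± 0.16, adjusted p = 0.00961). Tle2, a Groucho-type corepressor, had 29.6, 29.02, 26.7 and 23.2 in the double mutant and 47.6, 36.4, 39.4 and 42.2 in WT (-0.59 ± 0.11, adjusted p = 0.0137). Neither overlapped. Hopx did not pass with the replicate number as a block or in the 8 libraries alone. Tle2 did not pass in the 8 libraries alone, without double mutant replicate 4 (-0.52, adjusted p = 0.0604) or with the marker scores (-0.61 ± 0.14, adjusted p = 0.0963). Nfib, a factor that drives astrocyte formation, was at 0.31 ± 0.07 (adjusted p = 0.0554).

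Among transcripts tied to FMRP, Fmr1 was the only one to pass. Of 13 Fmr1 paralogs and FMRP partners, Fmr1 itself passed and 12 did not (median 0.03), with the cap-binding Eif4e at 0.11 ± 0.07. Of 36 FMRP-bound brain transcripts 0 passed in limma, 6 had an unadjusted p under 0.05, and the median was -0.04. Among them the RAS regulator Nf1 was at 0.22 ± 0.07 (adjusted p = 0.163). FMRP acts mainly on translation, and protein levels were not measured here.

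**Figure D5:**
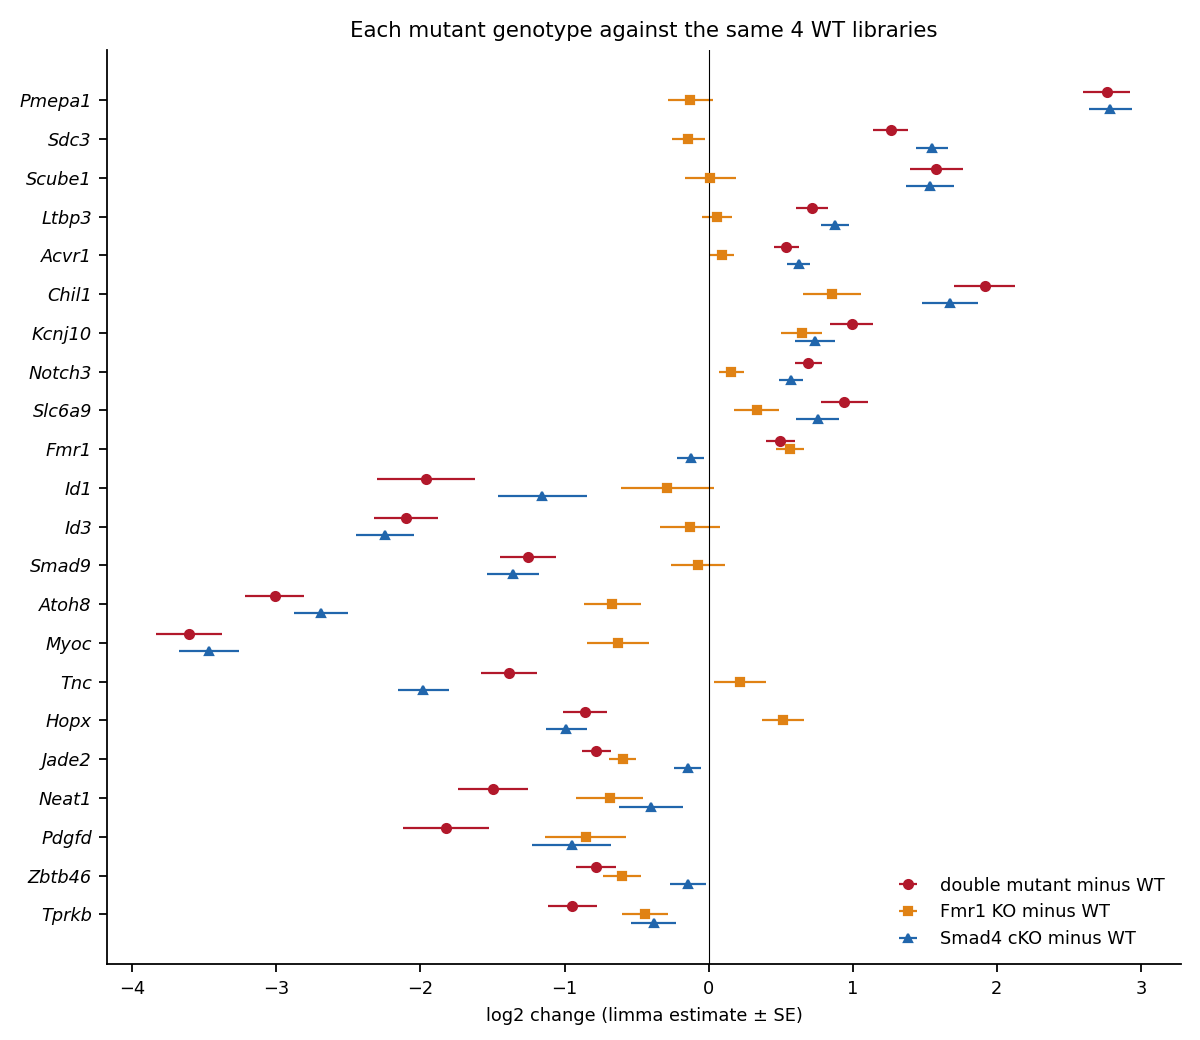
Log2 change with standard error (horizontal axis) of 22 genes in the double mutant (red circles), Fmr1 KO (orange squares) and Smad4 cKO (blue triangles), each minus the same 4 WT libraries. For Pmepa1 the estimates are 2.76, -0.13 and 2.79 in that order, and for Jade2 -0.78, -0.60 and -0.15.

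The single mutants, each against the same WT libraries, place these genes. Smad4 cKO had 118 of 15049 genes past the threshold (0.784%) and Fmr1 KO had 0 in limma, with 1239 at an unadjusted p under 0.05. Because all 3 comparisons share the WT libraries, their values are set side by side and not correlated. For Sdc3 the change was 1.26 ± 0.12 in the double mutant, -0.14 ± 0.12 in Fmr1 KO and 1.55 ± 0.11 in Smad4 cKO. For Id3 the values in that order were -2.10 ± 0.22, -0.13 ± 0.21 and -2.24 ± 0.20, and for Tnc -1.39 ± 0.19, 0.22 ± 0.18 and -1.98 ± 0.17. In these genes the Fmr1 KO estimate lay close to 0 for its standard error. Others had an estimate of the same sign in both single mutants. Chil1 was at 1.92 ± 0.21 in the double mutant, 0.85 ± 0.20 in Fmr1 KO and 1.67 ± 0.19 in Smad4 cKO, and Kcnj10 at 0.99 ± 0.15, 0.65 ± 0.14 and 0.74 ± 0.14. In the same order Myoc was at -3.60 ± 0.23, -0.63 ± 0.22 and -3.47 ± 0.21, and Atoh8 at -3.01 ± 0.21, -0.67 ± 0.20 and -2.69 ± 0.19. Hopx had opposite signs in the single mutants, -0.86 ± 0.16 in the double mutant, 0.52 ± 0.15 in Fmr1 KO and -0.99 ± 0.14 in Smad4 cKO.

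A further group passed in the double mutant and in neither single mutant, which does not by itself show a difference between genotypes. Jade2, a PHD-finger scaffold of histone acetyltransferase complexes, had 8.81, 8.53, 9.68 and 9.34 scaled TPM in the double mutant, against 16.7, 18.4, 14.3 and 15.99 in WT. No libraries overlapped (log2 change -0.78 ± 0.10, adjusted p = 8.20e-04), and the estimate was -0.60 ± 0.10 in Fmr1 KO and -0.15 ± 0.09 in Smad4 cKO. Neat1, the nuclear long noncoding RNA that builds paraspeckles, had 405, 339, 236 and 425 scaled TPM in the double mutant, against 897, 1037, 829 and 1147 in WT. It was among the most abundant genes to pass (log2 change -1.50 ± 0.24, adjusted p = 0.00496), with -0.69 ± 0.23 in Fmr1 KO and -0.40 ± 0.22 in Smad4 cKO. The single mutant estimates of Neat1 sum to -1.09, and its interaction term was -0.41 ± 0.32 (adjusted p = 0.9998). Pdgfd, a platelet-derived growth factor, had 2.65, 1.27, 1.404 and 1.901 scaled TPM in the double mutant, against 8.87, 15.9, 4.36 and 9.02 in WT (-1.82 ± 0.30, adjusted p = 0.00496). It was at -0.85 ± 0.28 in Fmr1 KO and -0.95 ± 0.27 in Smad4 cKO, and WT replicate 2, which also had the highest endothelial sum, was highest. With the marker scores as covariates Pdgfd still passed (-1.11 ± 0.18, adjusted p = 0.0183), but it did not pass in the 8 libraries alone.

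The same group also held Id1, Zbtb46, Tprkb and Mtmr10. Id1 was at -0.29 ± 0.32 in Fmr1 KO and -1.15 ± 0.31 in Smad4 cKO (adjusted p = 0.122), beside -1.96 ± 0.34 in the double mutant. Zbtb46, a transcription factor of dendritic and endothelial cells, fell to 2.51, 2.37, 2.38 and 2.92 scaled TPM in the double mutant, against 4.08, 7.11, 4.96 and 4.54 in WT (-0.78 ± 0.14, adjusted p = 0.00885; -0.63 ± 0.15, adjusted p = 0.0963 with the marker scores). Tprkb, a subunit of the KEOPS complex that modifies transfer RNA, had 116, 118, 90.3 and 124 in the double mutant and 193, 285, 213 and 184 in WT (-0.95 ± 0.17, adjusted p = 0.00928; -0.79 ± 0.21, adjusted p = 0.136 with the marker scores). Both fell with no overlap between groups. Mtmr10, a myotubularin relative, rose (0.37 ± 0.07, adjusted p = 0.00928) and did not pass with the marker scores (0.28 ± 0.06, adjusted p = 0.0876).

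The interaction term, which asks whether the double mutant differs from the sum of both single mutant changes, gave 0 genes past the threshold in limma, with 250 at an unadjusted p under 0.05. No departure of the double mutant from the sum of both single mutants was therefore detected for any gene, at this number of libraries. Among the named genes, Btbd3 was at 0.52 ± 0.16 (adjusted p = 0.9998), with -0.88 ± 0.12 in the double mutant beside a sum of -1.40. Chil1 was at -0.61 ± 0.28 (adjusted p = 0.9998), with 1.92 ± 0.21 beside a sum of 2.53. Against Fmr1 KO, 61 genes passed (0.405%), and against Smad4 cKO 3 did (0.0199%). The 3 are Fmr1, which was higher in the double mutant than in Smad4 cKO, Jade2, which was lower, and the small nucleolar RNA Snora34, named because the count is small, which was higher. Against WT, Snora34 did not pass (1.27 ± 0.34, adjusted p = 0.09502), with 47.2, 40.7, 41.1 and 39.3 scaled TPM in the double mutant and 17.2, 16.8, 17 and 16.2 in WT.

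Kank3, Ahnak and Tuba1a, picked after their values were seen, passed but lost their call with the marker scores. Kank3, which endothelial cells express, had 11.8, 6.07, 7.24 and 8.21 scaled TPM in the double mutant and 24.7, 44.98, 11.2 and 19.2 in WT, overlapping (-1.35 ± 0.31, adjusted p = 0.0445). Its WT values were highest in replicate 2 and lowest in replicate 3, as were those of the endothelial marker Flt1, at 7.69, 2.91, 3.59 and 6.49 in the double mutant and 12.4, 30.2, 4.79 and 15.3 in WT (-1.27 ± 0.37, adjusted p = 0.128). Ahnak, a giant scaffold protein, had 16.3, 12.8, 12.6 and 19.01 scaled TPM in the double mutant and 34.4, 52.3, 19.9 and 35.7 in WT (-1.12 ± 0.25, adjusted p = 0.0416). In the fit with those scores Kank3 was at -0.52 ± 0.12 (adjusted p = 0.0943) and Ahnak at -0.51 ± 0.17 (adjusted p = 0.258). Tuba1a, a tubulin abundant in young neurons, had 77.7, 165, 159 and 129 scaled TPM in the double mutant, against 50.1, 34.9, 64.1 and 46.8 in WT (1.39 ± 0.29, adjusted p = 0.0262). It was at 1.11 ± 0.29 with the marker scores (adjusted p = 0.138). Double mutant replicate 2 had the highest Tuba1a. In that genotype it also had the highest oligodendrocyte precursor sum (1117 scaled TPM). Its neuron sum was the lowest (195), close to that of double mutant replicate 1 (197). Double mutant replicate 3, with the highest neuron sum (590.1), had Tuba1a at 159. Double mutant replicate 1 had the lowest Tuba1a and the lowest oligodendrocyte sum (823) of that genotype. The cell source of the Tuba1a change was not tested. Of the 23 tested neuron markers the neurofilament gene Nefm had the highest estimate, with 4.05, 4.46, 16.4 and 6.95 in the double mutant and 1.47, 1.44, 2.37 and 2.55 in WT (1.43 ± 0.42, adjusted p = 0.135). Nefm was highest in double mutant replicate 3, which also had the highest neuron sum. Kank3, Ahnak and Tuba1a each lost their call without double mutant replicate 2, 3 or 4 or WT replicate 1, 2 or 4, and Ahnak also without double mutant replicate 1. Their adjusted p then reached 0.143 for Kank3, 0.157 for Ahnak and 0.116 for Tuba1a.

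In the remaining 7 lists 0 genes passed in limma. The median was 0.00 for 40 cytoplasmic ribosomal protein genes, 0.03 for 34 oxidative phosphorylation genes and -0.02 for 24 glycolysis and lactate genes, with 1, 4 and 2 at an unadjusted p under 0.05. It was -0.13 for 19 tested genes of antigen presentation and interferon response, 0.11 for 19 clock genes, 0.07 for 23 immediate early genes and 0.04 for 12 cell cycle genes, with 2, 4, 2 and 1 at an unadjusted p under 0.05. With the marker scores the median of antigen presentation and interferon genes was 0.19, with 15 of 19 above 0, against 6 of 19 without them. The clock repressor Per2 had 53.9, 44.7, 55.8 and 66.98 scaled TPM in the double mutant and 36.9, 41.4, 29.1 and 32.8 in WT, with no overlap, and did not pass (0.64 ± 0.16, adjusted p = 0.0717).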

How the data were processed

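The deposited values are TPM for 24537 genes in 19 libraries, computed by the authors. Per the submitters' processing notes the tools were bcl2fastq 2.20, MultiQC 1.0, STAR 2.5.3a and HOMER 4.10.4, with the build mm10. Strand and exon use in counting, and read depth, are not given in the sources used here, so overlapping and antisense genes cannot be separated.

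Libraries were divided by median-of-ratios factors, the 15049 genes of mean TPM 1 or more were kept, and log2(scaled TPM + 1) of all 19 libraries of the 4 genotypes was fitted with limma-trend. Benjamini-Hochberg adjustment ran over all tested genes of a comparison. The limma fit was also run on simulated data with independent normal noise for each gene. Those data held no differences in cell content and needed no library scaling, so that run tells nothing about either. R 4.3.3, limma 3.58.1, Python 3.11.15, scipy 1.17.1 and matplotlib 3.10.9 were used. Gene positions and promoter windows came from RefSeq tables of build GRCm38.p6. By RefSeq transcript or, where that was not found, by symbol, 15022 of 15049 genes had a position (99.8%).

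Named genes were Fmr1, Smad4, Id1, Id3, Gfap and Aqp4, the 15 higher and 15 lower genes of smallest adjusted p, up to 4 genes of smallest p in each of 30 lists, and the 8 of smallest p that passed in neither single mutant. Names of clones, predicted genes, microRNAs and small nucleolar RNAs were counted but passed over, except where stated, and some named genes are not reported here. The members, the lists and this rule were chosen with earlier results of these data known.

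Alternatives were other scalings (none, quantile), pseudocounts of 0.1 and 0.5, a filter of 5 and none, a replicate block, postnatal day, weights per library, the 8 libraries alone, a fit with no trend of variance, an adjusted p threshold of 0.1, and leaving out each library. Those added after the data were seen were scaling without Rn45s, leaving out the libraries of highest neuron markers, the block within the 8 libraries, and marker scores as covariates.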

Additional observations from a re-analysis of the deposited data

Results flagged for a closer look

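In 77 genes the highest or lowest of the 4 libraries of a group was set against the other 3, over 154 groups of values. In 11 of these 1 library stood apart by Dixon's 95% criterion, and chance alone gives about 1 in 20 groups. All values are scaled TPM. Double mutant replicate 1 stood apart in Smad4 (36.1, the others 30.7 to 30.8), Ldlrad4 (22.4, the others 17.4 to 17.7) and Bmpr1a (42.2, the others 34.7 to 35.6). Double mutant replicate 3 did in Chrdl1 (30.9, the others 25 to 25.3), and replicate 4 in Adamts5 (7.57, the others 6.10 to 6.22) and Ass1 (2.12, the others 1.03 to 1.15). WT replicate 4 was low in Id3 (233, the others 434 to 450.1) and in Chrdl1 (14.0, the others 17.8 to 18.4). WT replicate 3 was high in Msx2 (4.89, the others 2.47 to 2.67) and low in Notch3 (20.03, the others 23.6 to 24.2). WT replicate 2 was low in Slc25a18 (137, the others 162 in each).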

How the results depend on the processing

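Of 144 genes that passed in the double mutant against WT, the count was 360 without scaling (300 higher, 60 lower), 230 with library weights, 285 at a threshold of 0.1 and 46 with the 8 libraries alone. It ranged from 81 to 269 over the 8 fits without 1 library. It was 40 with the marker scores as covariates. Quantile normalization (138), pseudocounts of 0.1 and 0.5 (146 each), the filters (131 at a mean TPM of 5, 161 with none), day as a factor (127), no variance trend (153) and scaling without Rn45s (124) stayed within 1.5 times the count. The cause of these shifts was not tested. The interaction gave 0 genes without scaling and with the replicate block.

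Replicate numbers are shared labels and no pairing is stated. Same-numbered double mutant and WT libraries had correlations of their deviations of 0.06, -0.06, 0.18 and 0.12, and not every library correlated best with its own number. With the replicate block 93 genes passed (51 higher, 42 lower), and with the block in the 8 libraries, which leaves few degrees of freedom, 6 did (4 higher, 2 lower), 2 of them among the 144. Of the named genes that passed, Adamts5, Adamts9, Hopx, Zbtb46, Kank3, Ahnak and Tuba1a did not pass with the replicate block in all 19 libraries.

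Of 47 genes named here that passed, 39 passed in all 8 fits without 1 library, 19 in every alternative except those added after the data were seen, 27 with the marker scores, 19 with the 8 libraries alone, and 2, Pmepa1 and Myoc, in every fit run. Kept with the 8 libraries alone were Pmepa1, Atoh8, Id3, Smad9, Acvr1, Scube1, Ltbp3, Sdc3, Chil1 and Ap3s1. Also kept there were Notch3, Gca, Scel, Ccdc80, Kcnj10, Myoc, Jade2, Tnc and Neat1. Every other named gene that passed lost its call there, Id1, Btbd3, Pnpla3 and Pdgfd among them. Smad4 turned sign, to 0.051 without scaling (exact permutation p = 0.571) and 0.091 with the marker scores. Fmr1 ranged from 0.42 to 0.59 over the fits without 1 library, where 3 against 4 libraries cannot reach the exact p of 4 against 4. Without scaling the medians of BMP and TGF-beta ligands (0.0036), FMRP-bound transcripts (0.06) and glycolysis genes (0.08) turned positive. With the marker scores the medians of antigen presentation and interferon genes (0.19), glycolysis genes (0.0022), microglia markers (0.42) and mural and fibroblast markers (0.39) turned positive. Those of cell cycle genes (-0.03) and neuron markers (-0.56) turned negative. Oligodendrocyte markers make up their own score, so their median in that fit (-0.02) was held near 0 and is no result. With no read counts, the precision of low genes such as Myoc, Atoh8 and Serpinf1 is unknown.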
